A study of Mus musculus with 22 samples.

Results

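Integrins are the receptors that tie a cell to the matrix around it, and the focal adhesion core is the set of cytoplasmic proteins that links them to the actin cytoskeleton. The genes were chosen by name and not by level, with earlier results of these data known. Shares over all genes are therefore given for scale and are no test of the set. They were the protein-coding genes whose symbol has the form of an integrin alpha or beta subunit, together with 13 cytoplasmic genes of the adhesion core. The rule found 41 of the 49671 genes measured, made up of 18 alpha subunits, 8 beta subunits, 2 integrin-like genes (Itgbl1 and Itgb2l) and the 13 core genes. Itgbl1 and Itgb2l match the name pattern but do not encode conventional beta subunits.

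Each integrin is a pair of an alpha and a beta chain that spans the membrane. Outside, many integrins bind matrix proteins such as collagen, laminin or fibronectin, and those of leukocytes also bind proteins on other cells. Inside, integrins recruit talin and kindlin. Talin and vinculin carry force to actin, the complex of ILK, PINCH and parvin strengthens that link, and FAK, paxillin, p130Cas and zyxin turn it into signals. In the heart these proteins sit at the costameres that fix the sarcomere to the sarcolemma, and also in the fibroblasts, vessels and leukocytes of the wall, where other subunits prevail.

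The samples were bulk RNA from hearts of CD1 mice, an outbred strain. In banded mice (nPAB), a constriction of the pulmonary artery set with a 30G needle on postnatal day 1 obstructed outflow from the right ventricle (RV), and control mice had a Sham operation on the same day. The ventricles were taken 7 days later, which gave 6 nPAB and 5 Sham libraries of the RV and 6 nPAB and 5 Sham libraries of the left ventricle (LV), by number 1 of each ventricle from each of 11 mice. All 22 libraries carried batch label 1, no group carried a transgene or deletion by the labels, and the labels state neither litters nor pooling.

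Libraries held 7.11 to 11.3 M reads assigned to genes, with group means of 9.47 ± 0.550 M in RV nPAB and 8.61 ± 1.29 M in RV Sham (SD, n = 6 and 5). In the LV the means were 9.73 ± 1.22 M in nPAB and 8.10 ± 0.640 M in Sham (n = 6 and 5). The nPAB libraries were thus deeper on average in both ventricles. The sex-linked genes gave the same sex for the RV and LV libraries of 9 of the 11 mice and differed in nPAB mice 6 and 7, so results are given with and without these mice where the call changes. The 10 cardiomyocyte markers summed to 806899 to 946470 normalized counts in RV nPAB and 798100 to 933671 in RV Sham. Of the 10, 2 were higher and 3 lower in RV nPAB, against 11.1% and 10.8% of all genes tested there. No gene of any marker list was at 0 in every library. Values below are normalized counts, the deposited unit, which is scaled within each ventricle.

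Of the 41 genes, 36 reached a mean of 10 normalized counts in both ventricles and were tested. The 5 that did not were the alpha subunits Itga10, Itgae and Itgax, the beta subunit Itgb7 and Itgb2l. Just outside the limit stood Itga10, with a mean of 6.76 in the RV and 4.59 in the LV. Just inside stood Itga2b, the platelet alpha subunit, with 15.3 in the RV and 17.6 in the LV.

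In the RV, where the ventricle pumps against the band, 12 of the 36 tested genes (33.3%) passed the test between nPAB and Sham, against 22.0% of all 13660 genes tested. Of the 36, 10 were higher in nPAB, a larger share than the 11.1% of all genes, and 2 were lower, a smaller share than the 10.8% of all genes. The higher ones were Itga9, Itga5, Itga1, Itgb1, Tln1, Ilk, Lims2, Parvb, Bcar1 and Zyx, and the lower ones were Itgb6 and Tln2. Among the subgroups, 3 of 15 alpha subunits (20.0%), 2 of 7 beta subunits (28.6%) and 7 of 13 core genes (53.8%) passed. The 7 core genes include Ilk, whose count is uncertain, as described below. Over the 22 tested alpha and beta subunits together the share was 22.7%, near the 22.0% of all genes. The median log2 fold change, nPAB over Sham, was 0.18 over the 36 genes and 0.00 over all genes tested. In 10 of the 36 genes the 6 nPAB and 5 Sham libraries did not overlap, a larger share than the 12.9% of all genes. "Passed" here means a Benjamini-Hochberg adjusted p under 0.05 over all genes of the ventricle in limma.

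**Figure D1:**
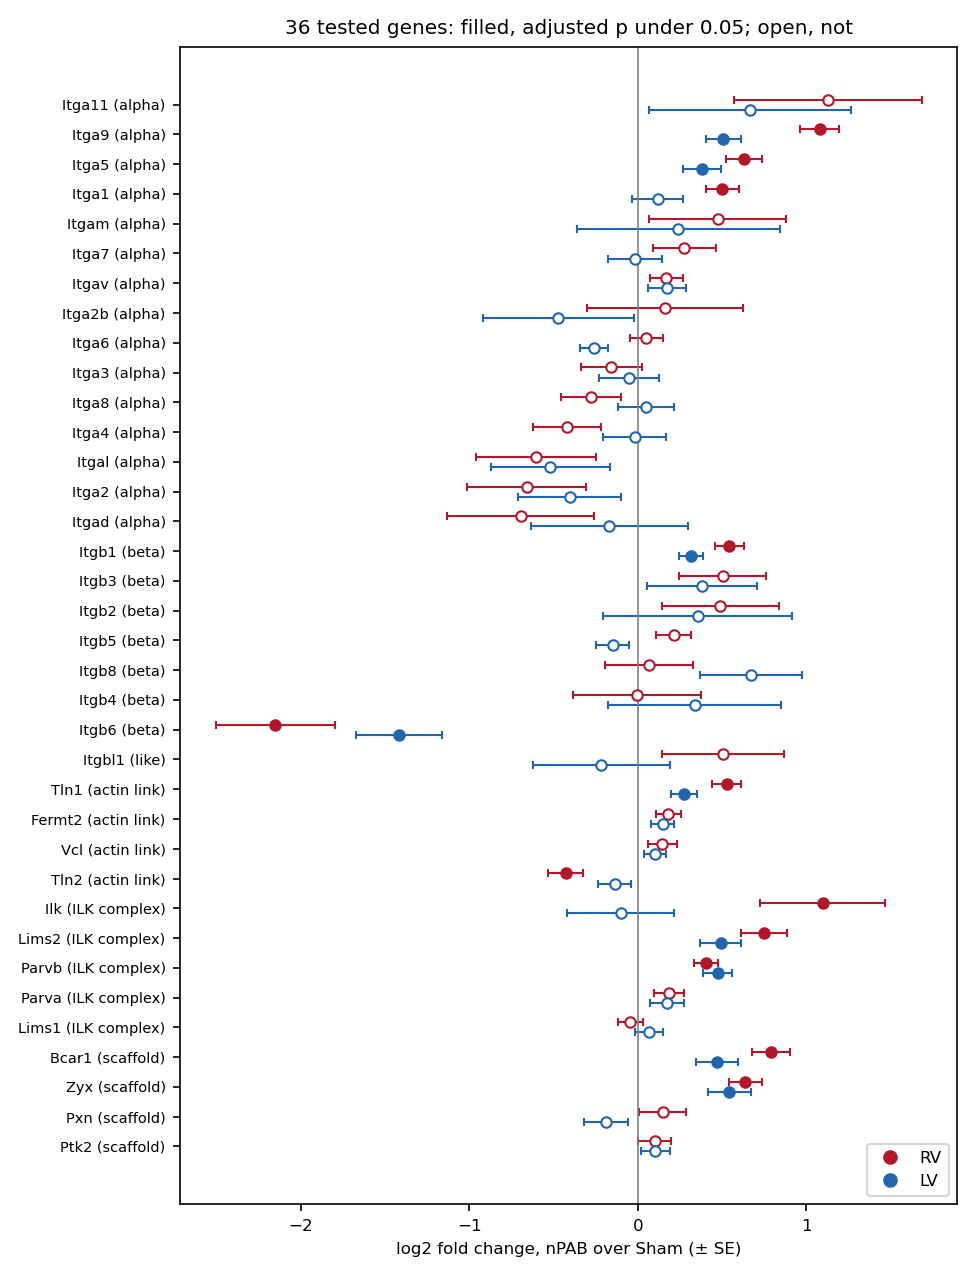
Log2 fold change of nPAB over Sham, with its standard error, for the 36 tested genes in the RV (red) and the LV (blue). Filled points passed the test (12 in the RV and 9 in the LV) and open points did not. Itgb6 lies far to the left in both ventricles, and Itga9 is the filled alpha subunit farthest to the right in the RV.

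Of the 8 fibroblast markers, 3 were lower in RV nPAB and 0 higher, against 10.8% lower and 11.1% higher of all genes. Their sum ran from 36524 to 57065 normalized counts in nPAB and from 56718 to 75052 in Sham, a ratio of means of 0.75, and the groups overlapped slightly. Smooth muscle and pericyte markers had a ratio of 0.88, with 1 of 9 higher and 1 lower, near the shares over all genes. The atrial markers ran from 983 to 10026 in nPAB and from 420.2 to 2743 in Sham, a ratio of means of 2.68. Their groups overlapped with a wide spread, and 0 of 6 passed. Leukocyte markers ran from 1336 to 2586 in nPAB and from 1364 to 2377 in Sham, with 0 of 12 tested passing. In the LV, 0 of 8 fibroblast markers (ratio of means 0.96), 0 of 12 leukocyte and 0 of 5 atrial markers passed. There, 1 of 9 smooth muscle and pericyte markers was higher and 1 lower, and 1 of 10 cardiomyocyte markers was higher. The LV shares over all genes were 4.76% higher and 4.55% lower. The part of these cell types in the results was not tested, and in bulk RNA fewer cells of a type and less RNA per cell cannot be told apart.

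Itgb1 encodes the beta chain shared by most integrins of muscle and matrix-bound cells (ENSMUSG00000025809, chromosome 8, 128685654 to 128733200, plus strand, GRCm38). In the RV it ran from 9546 to 13487 normalized counts (median 11877) in the 6 nPAB libraries, against 7779, 8129.5, 7703, 7819.6 and 7879 in the 5 Sham libraries. The groups did not overlap, and the Sham libraries lay much closer together than the nPAB libraries. The means were 11547 ± 1628 in nPAB (SD, n = 6) and 7862 ± 163 in Sham (n = 5). The log2 fold change was 0.54 ± 0.09 SE (limma adjusted p = 2.57e-04). Of the other 6 tested beta subunits only Itgb6 passed in the RV. The fold changes of Itgb5 and Itgb3, partners of the Itgav chain, were 0.21 (adjusted p = 0.158) and 0.50 (adjusted p = 0.181).

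The stretch around the start of Itgb1 is shown because it is the most abundant beta subunit and rose in both ventricles. Promoters are RefSeq windows of 300 bases, 250 before the start and 50 after it, printed 5′ to 3′ on the gene's strand, and were given for 28 of the 41 genes (34 windows). They were searched on both strands for the CArG box, known as a binding site of serum response factor, for GGAATG, a core word bound by TEAD factors, and for TGACTCA, a word bound by AP-1. Capitals mark a match.
Itgb1, chr8:128685404-128685703, plus strand, GRCm38.p6: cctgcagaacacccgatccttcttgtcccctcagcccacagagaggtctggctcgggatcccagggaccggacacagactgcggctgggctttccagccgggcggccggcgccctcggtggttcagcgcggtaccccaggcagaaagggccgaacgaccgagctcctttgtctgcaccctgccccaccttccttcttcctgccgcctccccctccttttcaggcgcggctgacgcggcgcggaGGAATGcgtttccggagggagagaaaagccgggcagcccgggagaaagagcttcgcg
GGAATG starts 7 bases before the Itgb1 start and is found in 14.7% of all 32851 windows, so it is a common word. Among the genes studied, Itgb1, Vcl and Itga10 have it.

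Itgb6 encodes the beta chain that pairs with Itgav, a subunit best known from epithelia, where it binds the latent form of TGF-beta (ENSMUSG00000026971, chromosome 2, 60598292 to 60722643, minus strand). It showed the lowest fold change of the 36 genes in each ventricle. In the RV it ran from 44.9 to 186 normalized counts (median 92.4) in the 6 nPAB libraries, against 341, 368, 462, 446 and 444 in the 5 Sham libraries. Every nPAB library lay below every Sham library. The means were 105 ± 59.8 in nPAB and 412 ± 54.0 in Sham, a log2 fold change of -2.15 ± 0.35 SE (adjusted p = 0.00115). In the LV it ran from 75.0 to 248 (median 159.9) in nPAB, against 345, 364, 574, 327 and 494 in Sham. The LV groups were separate too, with a log2 fold change of -1.42 ± 0.25 SE (adjusted p = 0.00365). Without mice 6 and 7 the values were -2.14 and -1.42.

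RefSeq gives Itgb6 a start at the gene's edge and a second start inside it, and both windows are shown because Itgb6 changed most.
Itgb6 start 1, chr2:60722554-60722853, minus strand, GRCm38.p6: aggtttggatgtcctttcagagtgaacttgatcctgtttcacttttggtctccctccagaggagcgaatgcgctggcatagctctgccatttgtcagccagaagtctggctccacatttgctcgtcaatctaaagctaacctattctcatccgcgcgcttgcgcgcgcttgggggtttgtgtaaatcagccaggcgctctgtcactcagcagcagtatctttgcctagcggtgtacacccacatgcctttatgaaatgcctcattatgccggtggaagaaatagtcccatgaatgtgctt
Itgb6 start 2, chr2:60673644-60673943, minus strand, GRCm38.p6: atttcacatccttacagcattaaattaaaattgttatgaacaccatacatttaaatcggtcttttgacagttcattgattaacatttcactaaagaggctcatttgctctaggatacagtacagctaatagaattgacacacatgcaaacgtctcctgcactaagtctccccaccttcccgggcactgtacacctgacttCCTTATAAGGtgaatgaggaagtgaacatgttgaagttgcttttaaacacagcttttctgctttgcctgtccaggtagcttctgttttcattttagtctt
The first window holds none of the 3 words. The second holds a CArG box 50 bases before the inner start. The CArG box is found in 1.63% of all windows, and among the genes studied in those of Itgb6, Vcl and Fermt2. The counts are per gene, so they do not say from which start the Itgb6 reads came.

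Of the alpha subunits, Itga9, Itga5 and Itga1 rose in the RV. Itga9, whose product pairs with that of Itgb1 and binds tenascin-C, osteopontin and fibronectin (ENSMUSG00000039115, chromosome 9, 118606690 to 118901003), ran from 3904 to 5451 normalized counts (median 4246) in the 6 nPAB libraries, against 1648, 1918, 1851, 2268 and 2738 in the 5 Sham libraries. The groups did not overlap, and mouse 10 stood above the other nPAB libraries. The means were 4364 ± 562 in nPAB and 2085 ± 428 in Sham. Its log2 fold change was 1.08 ± 0.12 SE (adjusted p = 8.69e-06), the smallest adjusted p among the 36 genes.

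Itga5 encodes the alpha chain of the classical fibronectin receptor (ENSMUSG00000000555, chromosome 15, 103344286 to 103366763). In the RV it ran from 906 to 1354 normalized counts (median 1089.7) in nPAB, against 675, 603, 647, 813 and 754 in Sham. The groups did not overlap, and the log2 fold change was 0.63 ± 0.11 SE (adjusted p = 3.90e-04). Itga1 encodes a collagen receptor chain (ENSMUSG00000042284, chromosome 13, 114953096 to 115101964). It ran from 1492 to 2173 (median 1818) in nPAB, against 1039.7, 1244, 1339, 1418 and 1452 in Sham. These groups were separate by a narrow margin, with a log2 fold change of 0.50 ± 0.10 SE (adjusted p = 0.00144).

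The other 12 tested alpha subunits did not pass in the RV. The laminin receptor chains Itga6 and Itga7 had log2 fold changes of 0.05 (adjusted p = 0.763) and 0.28 (adjusted p = 0.330). Itgav, which serves several beta chains, was at 0.17 (adjusted p = 0.248). Itga11, a collagen receptor chain of fibroblasts, had the highest fold change of all 36 genes and a wide spread: 11.0 to 128 normalized counts (median 54.5) in nPAB, against 28.7, 12.1, 37.3, 7.78 and 28.2 in Sham. The groups overlapped, with 4 of the 6 nPAB libraries above every Sham library, and the log2 fold change was 1.13 ± 0.56 SE (adjusted p = 0.172). Without mice 6 and 7 it was 0.61, without nPAB mouse 10 it passed at 1.51 (adjusted p = 0.0312), and in DESeq2 it passed at 1.33 (adjusted p = 0.0344). The leukocyte chains Itgal, Itgam and Itgad had log2 fold changes of -0.61, 0.47 and -0.70 and mean levels of 31.7, 27.5 and 28.7 normalized counts. Of the exonic bases of Itgam, 68.7% are shared with another gene model on the same strand, so its count is uncertain.

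**Figure D2:**
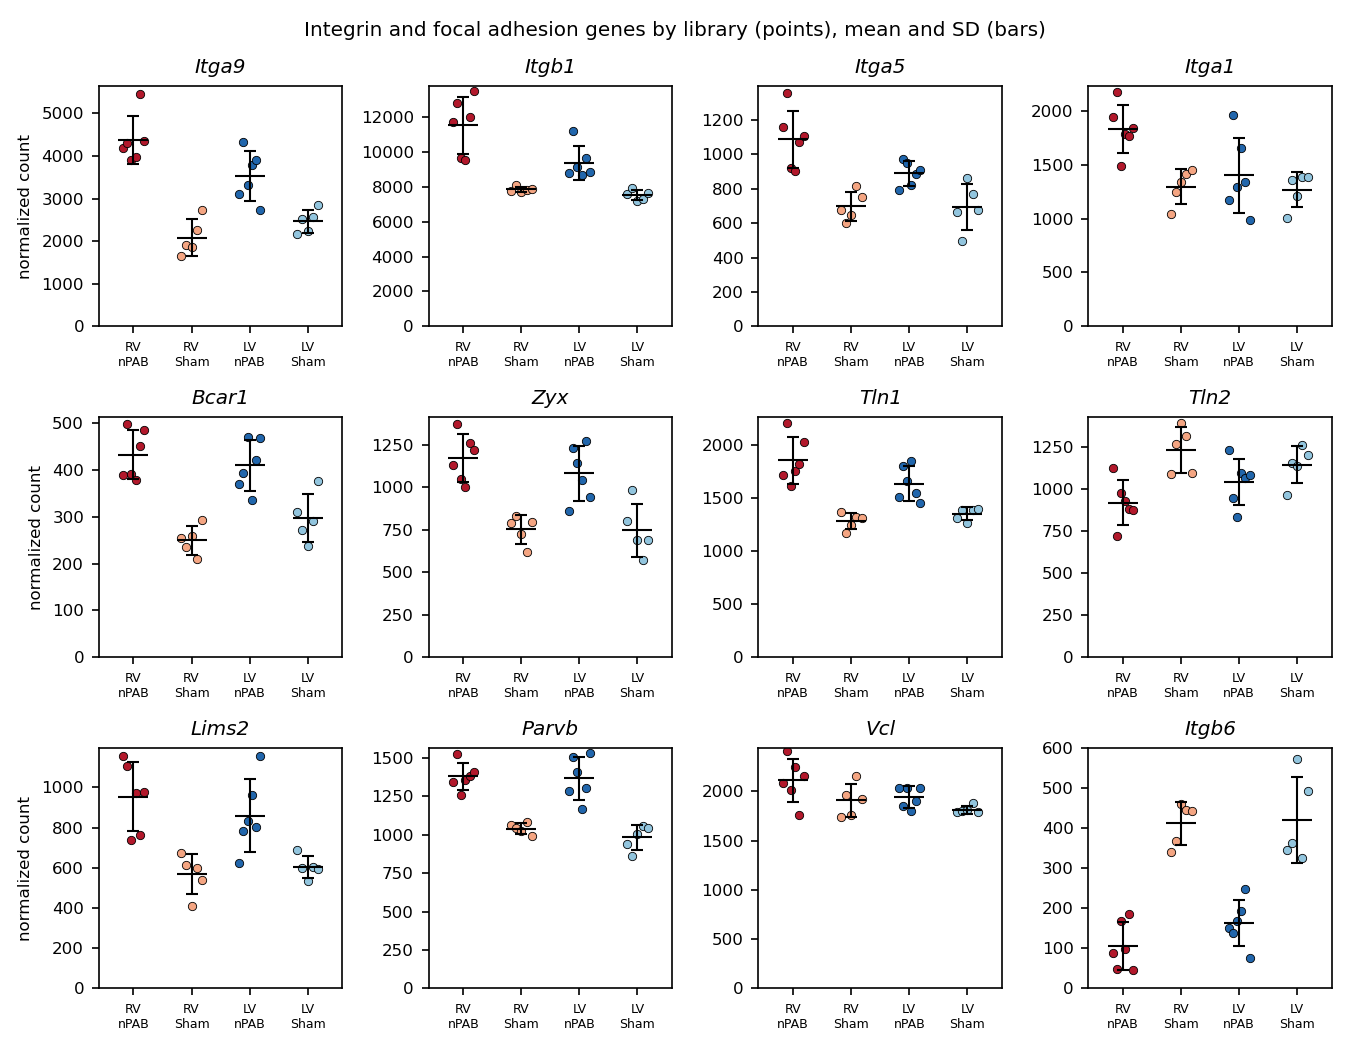
Normalized counts of 12 of the genes in each library (points), with group mean and SD (bars), for RV nPAB, RV Sham, LV nPAB and LV Sham. RV and LV values were scaled separately, so nPAB is to be compared with Sham within a ventricle. In the RV the nPAB points of Itga9, Itgb1, Itga5, Itga1, Bcar1, Zyx, Tln1, Lims2 and Parvb lie above all Sham points, those of Itgb6 lie below, and those of Tln2 and Vcl overlap.

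The 2 talin genes moved in opposite directions in the RV. Talins bind the tail of the beta chain and switch the integrin on. Tln1, the widely expressed talin (ENSMUSG00000028465, chromosome 4, 43531519 to 43562691), ran from 1610.1 to 2211 normalized counts (median 1787) in nPAB, against 1368, 1173, 1244, 1321 and 1309 in Sham. Its groups did not overlap, and the log2 fold change was 0.53 ± 0.09 SE (adjusted p = 2.53e-04). Tln2, the talin of mature muscle (ENSMUSG00000052698, chromosome 9, 67217087 to 67559703), ran from 724 to 1129 (median 909.9) in nPAB, against 1092, 1269, 1398, 1318 and 1095 in Sham. Only the highest nPAB library, that of mouse 5, reached into the Sham range, and the log2 fold change was -0.43 ± 0.10 SE (adjusted p = 0.00581).

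Vcl, the gene of vinculin, which binds talin and actin (ENSMUSG00000021823, chromosome 14, 20929398 to 21033676), did not pass in either ventricle. In the RV it ran from 1759 to 2408 normalized counts (median 2122) in nPAB, against 1744, 1969, 1761, 2154 and 1925 in Sham. The groups overlapped, with a log2 fold change of 0.14 ± 0.09 SE, a 95% interval from -0.04 to 0.32 and an adjusted p of 0.253. In the LV it ran from 1798 to 2039 (median 1969) in nPAB, against 1788, 1797, 1815, 1879 and 1789 in Sham (log2 fold change 0.10, adjusted p = 0.372). Of the exonic bases of Vcl, 25.5% are shared with Ap3m1 on the other strand, and the strand of counting is not given. Fermt2, the kindlin of heart muscle, was at 0.18 in the RV (adjusted p = 0.0871) and 0.15 in the LV (adjusted p = 0.191).

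The promoter of Vcl is shown because it holds 2 of the 3 words while its level did not pass the test.
Vcl, chr14:20929148-20929447, plus strand, GRCm38.p6: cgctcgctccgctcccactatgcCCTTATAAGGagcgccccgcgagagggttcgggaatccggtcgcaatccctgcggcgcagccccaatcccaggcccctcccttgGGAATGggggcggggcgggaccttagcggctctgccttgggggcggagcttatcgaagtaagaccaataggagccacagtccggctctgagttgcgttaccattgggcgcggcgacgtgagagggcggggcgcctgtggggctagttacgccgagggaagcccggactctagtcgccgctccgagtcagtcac
Its CArG box starts 227 bases before the start and its GGAATG 143 bases before it, and they do not overlap. The box has the same letters, CCTTATAAGG, as that of the inner Itgb6 start, a gene that fell. A match describes letters only and says nothing about binding.

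Of the complex of ILK, PINCH and parvin, 3 of 5 genes passed as higher in the RV, against 11.1% of all genes. They were Lims2, Parvb and Ilk, and the change of Ilk is uncertain, as described below. Lims2, a PINCH adaptor (ENSMUSG00000024395, chromosome 18, 31922290 to 31958619), ran from 736 to 1156 normalized counts (median 977) in nPAB, against 674, 614, 410.4, 601 and 538 in Sham. The groups did not overlap, and the log2 fold change was 0.75 ± 0.14 SE (adjusted p = 9.06e-04). Its paralog Lims1 was at -0.05 (adjusted p = 0.710). Parvb, the beta-parvin that binds ILK and actin (ENSMUSG00000022438, chromosome 15, 84232043 to 84315688), ran from 1256 to 1529.5 (median 1371) in nPAB, against 1062, 1041, 1026, 1084 and 991 in Sham. These groups were separate too, with a log2 fold change of 0.41 ± 0.07 SE (adjusted p = 5.68e-04), while Parva was at 0.18 (adjusted p = 0.143).

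Ilk, the pseudokinase at the centre of this complex (ENSMUSG00000030890, chromosome 7, 105736592 to 105742925), was counted at low levels. It ran from 14.3 to 37.2 normalized counts (median 30.3) in RV nPAB, against 9.56, 18.6, 16.7, 13.6 and 5.87 in RV Sham. The lowest nPAB library lay inside the Sham range, and the log2 fold change was 1.10 ± 0.37 SE (adjusted p = 0.0403). Without mice 6 and 7 the adjusted p was 0.0917. Of the exonic bases of Ilk, 89.7% are shared with genes on the other strand, 76.7% with Taf10 alone, which had a mean of 322 normalized counts in the RV. The level of Ilk is therefore uncertain, and so is its change.

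Of the signalling scaffolds, Bcar1 and Zyx rose in the RV and Ptk2 and Pxn did not pass. Bcar1 encodes p130Cas, a docking protein phosphorylated when stretched (ENSMUSG00000031955, chromosome 8, 111710474 to 111743809). It ran from 378 to 498 normalized counts (median 421) in nPAB, against 254, 236, 258, 209 and 292 in Sham. The groups did not overlap, and the log2 fold change was 0.79 ± 0.11 SE (adjusted p = 9.42e-05). Zyx encodes zyxin, which gathers at tensed actin fibres (ENSMUSG00000029860, chromosome 6, 42349630 to 42360213). It ran from 998 to 1373 (median 1173) in nPAB, against 790.1, 831, 725, 619.6 and 797 in Sham. These groups were separate too, with a log2 fold change of 0.64 ± 0.10 SE (adjusted p = 1.63e-04). Ptk2, the gene of focal adhesion kinase, was at 0.10 (adjusted p = 0.530) and Pxn, the gene of paxillin, at 0.15 (adjusted p = 0.501).

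The promoter of Zyx is shown because it was the only window of a gene that rose, other than those of Itgb1 and Itga9, with any of the 3 words.
Zyx, chr6:42349578-42349877, plus strand, GRCm38.p6: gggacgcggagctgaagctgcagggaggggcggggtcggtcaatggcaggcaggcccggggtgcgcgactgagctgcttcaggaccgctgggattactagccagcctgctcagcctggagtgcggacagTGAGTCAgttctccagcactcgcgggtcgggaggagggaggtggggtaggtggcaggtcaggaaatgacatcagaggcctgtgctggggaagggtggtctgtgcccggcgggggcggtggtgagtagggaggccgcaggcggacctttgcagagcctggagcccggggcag
The AP-1 word stands 121 bases before the start, read here as TGAGTCA because it lies on the other strand. It is found in 5.20% of all windows and, among the genes studied, in those of Zyx, Itga9 and Itgax. The window of Itga9 lies inside the gene bounds given above.

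The LV does not pump against the band, and its comparison asks what nPAB changed in the other ventricle of these mice. There 9 of the 36 tested genes (25.0%) passed, against 9.31% of the 13528 genes tested in the LV. Only Itga9, Itgb6 and Parvb passed under all 19 alternatives, and without the trend and robust options of limma these 3 alone passed. Of the 36, 8 were higher in nPAB, a larger share than the 4.76% of all genes, and 1 was lower, a smaller share than the 4.55% of all genes. The higher ones were Itga9, Itga5, Itgb1, Tln1, Lims2, Parvb, Bcar1 and Zyx, and the lower one was Itgb6. The libraries did not overlap in 5 of the 36 genes (Itgb1, Itgb6, Tln1, Parvb and Fermt2), a larger share than the 6.53% of all genes. The median log2 fold change over the 36 genes was 0.11, against -0.01 over all genes. Without mice 6 and 7, 4 genes were higher and 2 lower. Of the 8, Itga5, Tln1, Bcar1 and Zyx no longer passed, at adjusted p of 0.165, 0.135, 0.0916 and 0.0758, and Itga6 passed as lower at -0.32 (adjusted p = 0.0444). Leaving out nPAB mouse 7, Sham mouse 10 or Sham mouse 11 alone left 5 higher genes.

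Parvb had the smallest adjusted p of the 36 genes in the LV. It ran from 1165 to 1532 normalized counts (median 1359) in LV nPAB, against 942, 865, 1007, 1058 and 1045 in LV Sham. The groups did not overlap, and the log2 fold change was 0.47 ± 0.09 SE (adjusted p = 0.00191). Lims2 ran from 621 to 1158 (median 818) in nPAB, against 687, 597, 534, 603 and 592 in Sham, with 1 nPAB library inside the Sham range (log2 fold change 0.49 ± 0.12 SE, adjusted p = 0.0173). Ilk did not pass: it ran from 15.4 to 22.4 (median 19.1) in nPAB, against 14.6, 19.3, 18.3, 32.3 and 21.5 in Sham, with overlapping groups and a log2 fold change of -0.10 (adjusted p = 0.879).

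Itgb1 ran from 8687 to 11216 normalized counts (median 8994) in LV nPAB, against 7596, 7952, 7169, 7318 and 7641 in LV Sham. Its groups were separate, with a log2 fold change of 0.31 ± 0.07 SE (adjusted p = 0.00932). Itga9 ran from 2739 to 4320.0 (median 3553) in nPAB, against 2158, 2531, 2248, 2561 and 2838 in Sham, and overlapped in 1 library of each group (0.51 ± 0.11 SE, adjusted p = 0.00622). Itga5 ran from 794 to 976 (median 899) in nPAB, against 665, 496, 863, 767 and 676 in Sham. Its groups overlapped, and the log2 fold change was 0.38 ± 0.11 SE (adjusted p = 0.0430). Itga1 did not pass in the LV: 989 to 1962 (median 1316) in nPAB, against 1009.9, 1358, 1207, 1385 and 1391 in Sham, at a log2 fold change of 0.12 (adjusted p = 0.688).

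Of the core genes that rose in the LV, Bcar1, Zyx and Lims2 had overlapping groups there and separate ones in the RV. Bcar1 ran from 336 to 470.3 normalized counts (median 407) in LV nPAB, against 311, 272, 236, 291 and 376 in LV Sham (log2 fold change 0.47 ± 0.13 SE, adjusted p = 0.0243). Zyx ran from 858 to 1272 (median 1092) in nPAB, against 802, 981, 687, 575 and 687 in Sham (0.54 ± 0.13 SE, adjusted p = 0.0135). Tln1 ran from 1453 to 1849 (median 1601) in nPAB, against 1315, 1387, 1262, 1391 and 1398 in Sham. The Tln1 groups were separate, while those of Bcar1 and Zyx overlapped. The log2 fold change of Tln1 was 0.27 ± 0.08 SE (adjusted p = 0.0332). Tln2 did not pass in the LV: 839 to 1234 (median 1076) in nPAB, against 968, 1158, 1139, 1265 and 1205 in Sham, with a log2 fold change of -0.14 (adjusted p = 0.406).

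Of the 36 genes, 9 (25.0%) passed in both ventricles in the same direction, against 7.19% of the 13364 genes tested in both. These were all 9 that passed in the LV; of the 1259 such genes in the whole table, 76.3% did so. By their numbers the RV and LV libraries came from the same mice, so these are not independent samples. Ilk, Itga1 and Tln2 passed in the RV and not in the LV. The fold change was larger in size in the RV than in the LV for 27 of the 36 genes (75.0%), against 58.8% of all genes tested in both ventricles. It was so for 11 of the 12 genes that passed in the RV, a choice that favours a larger RV value, and for 88.0% of all genes that passed there. The difference between the ventricles was tested itself, on a joint scale over the 22 libraries, and 0 of the 36 genes passed in limma, as did 0.0224% of all genes. In edgeR and in DESeq2 the count was 0 too, and 5 genes had an unadjusted p under 0.05. Among these, the nPAB effect on Itga9 was larger in the RV by 0.57 on the log2 scale (95% interval 0.22 to 0.92, adjusted p = 0.381). That on Tln1 was larger by 0.25 (0.02 to 0.48, adjusted p = 0.652). The rest were Ilk at 1.20 (adjusted p = 0.570), Itgb5 at 0.36 (adjusted p = 0.573) and Itga6 at 0.31 (adjusted p = 0.614). For Ilk, Itgb5 and Itga6 the log2 fold change was above 0 in the RV (1.10, 0.21 and 0.05) and below 0 in the LV (-0.10, -0.15 and -0.26). For Itgb1 the difference was 0.23 (-0.01 to 0.46, adjusted p = 0.694), and for Itgb6 it was -0.74 (-1.71 to 0.23, adjusted p = 0.800).

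The 8 genes higher in both ventricles were also followed in single mice, as the mean of their log2 differences from the Sham mean. In the RV this mean ran from 0.47 in nPAB mouse 7 to 0.87 in nPAB mouse 6, and in the LV from 0.24 in nPAB mouse 5 to 0.56 in nPAB mouse 6. The value was above 0 in all 6 nPAB libraries of each ventricle, and the Sham libraries lay between -0.10 and 0.10 in the RV and between -0.06 and 0.07 in the LV. Itgb6 ran from -3.16 in mouse 11 to -1.13 in mouse 10 among the RV nPAB libraries. In the LV nPAB libraries Itgb6 had its extremes in the same mice, at -2.44 in mouse 11 and -0.72 in mouse 10. In mice 6 and 7 the sex-linked genes of the RV and LV libraries differ, so same-numbered libraries there cannot be read as 1 animal. Over the other 4 nPAB mice the mean ran from 0.53 to 0.76 in the RV and from 0.24 to 0.47 in the LV. These genes were picked by their call, so the direction is fixed by the choice.

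In Sham hearts the RV was also compared with the LV, to see whether the ventricles differ without banding. Of the 36 genes, 0 passed in limma, as did 0.0449% of all genes, and the count was 0 in edgeR and DESeq2. An unadjusted p under 0.05 was found for 5 genes. The RV minus LV difference was 0.48 for Itga8 (adjusted p = 0.754) and 0.43 for Itga4 (adjusted p = 0.826), chains of mesenchymal cells and of leukocytes. It was -0.30 for Itga9 (adjusted p = 0.755), -0.28 for Bcar1 (adjusted p = 0.794) and -0.76 for Ilk (adjusted p = 0.794). For Itgb1 the difference was 0.02 (95% interval -0.15 to 0.19).

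To compare genes with each other, reads on the joint scale were divided by the length of the gene's exons. Itgb1 stood far above every other subunit, at 2786 ± 394 normalized counts per kb in RV nPAB and 1901 ± 40.1 in RV Sham. The next beta subunit was Itgb5, at 146 ± 20.7 in RV nPAB and 126 ± 5.98 in RV Sham. In RV nPAB Itgb6, at 14.6 ± 8.24 per kb, overlapped in spread with Itgb3, at 17.3 ± 7.50, whereas in RV Sham Itgb6, at 57.2 ± 7.44, stood clear above it. Among the alpha subunits Itga9 led in all 4 groups, at 559 ± 70.9 per kb in RV nPAB and 267 ± 54.7 in RV Sham. Itga5 came second in RV nPAB at 217 ± 33.3 and Itga6 second in RV Sham at 162 ± 16.3, with Itga5 close behind it in Sham at 139.7 ± 16.7. In every group the alpha subunits below Itga3 stayed under 12 per kb on average.

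**Figure D3:**
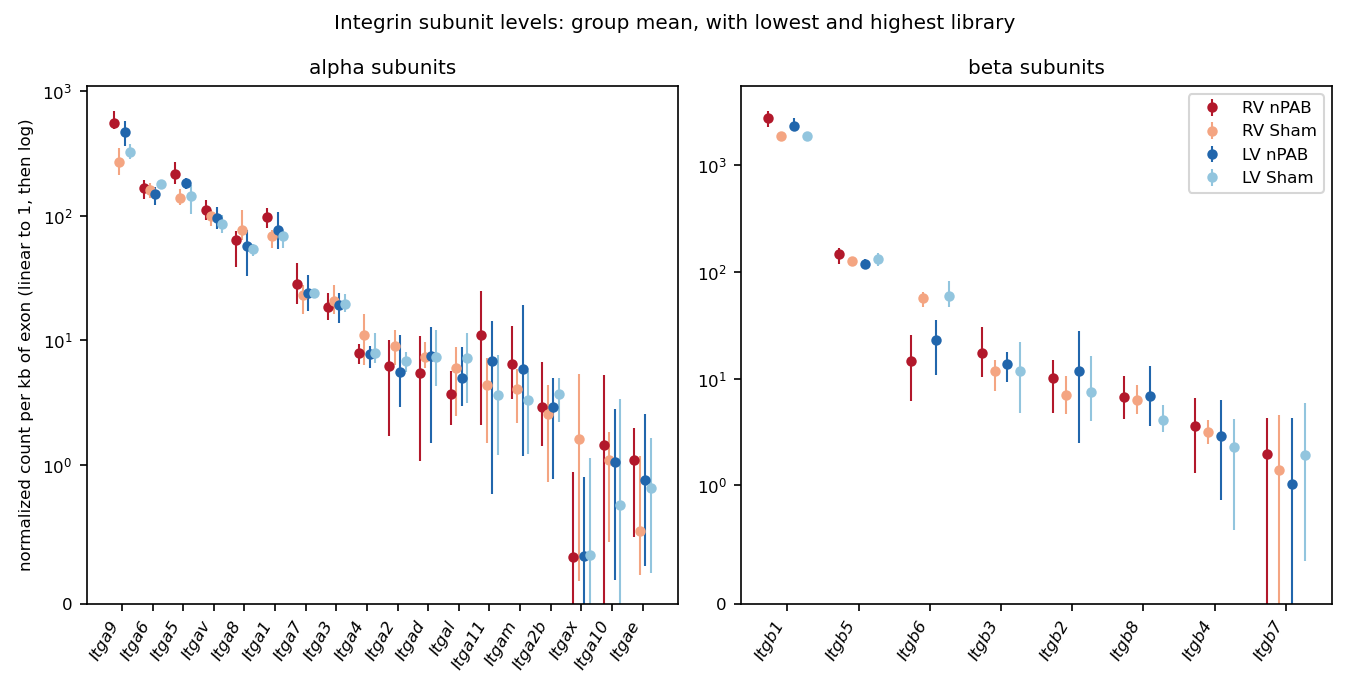
Mean level of each integrin subunit per kb of exon on the joint scale, with the lowest and highest library, for RV nPAB, RV Sham, LV nPAB and LV Sham (n = 6, 5, 6 and 5). The axis is linear up to 1 and logarithmic above it. Itgb1 and Itga9 stand at the top of their classes in all 4 groups, and Itgb6 is the beta subunit whose nPAB points lie well below its Sham points.

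The level of Itgb1 relative to the sum of the 12 alpha chains that pair with it was close in all groups. The ratio was 2.16 ± 0.227 in RV nPAB and 2.16 ± 0.162 in RV Sham, and 2.15 ± 0.167 in LV nPAB and 2.05 ± 0.118 in LV Sham (SD). The make-up of the alpha sum was not the same. Itga9 made up 38.6% to 51.1% of it in RV nPAB and 26.4% to 35.6% in RV Sham, without overlap. In the LV its share was 38.6% to 45.7% in nPAB and 32.8% to 38.3% in Sham, again without overlap. These ratios were chosen with the fold changes known and were not tested.

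Ratios between paralogs of the core were taken in the same way and not tested. The ratio of Tln1 to Tln2 per kb was 2.84 to 5.72 in RV nPAB and 1.67 to 2.35 in RV Sham, without overlap, and 2.29 to 3.70 in LV nPAB and 2.06 to 2.54 in LV Sham, with overlap. The ratio of Lims1 to Lims2 was 1.96 to 3.42 in RV nPAB and 3.33 to 6.20 in RV Sham. In the LV it was 2.27 to 4.34 in nPAB and 3.45 to 4.84 in Sham, and the groups overlapped in both ventricles. The ratio of Parvb to Parva averaged 3.06 ± 0.379 in RV nPAB and 2.61 ± 0.224 in RV Sham.

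**Figure D4:**
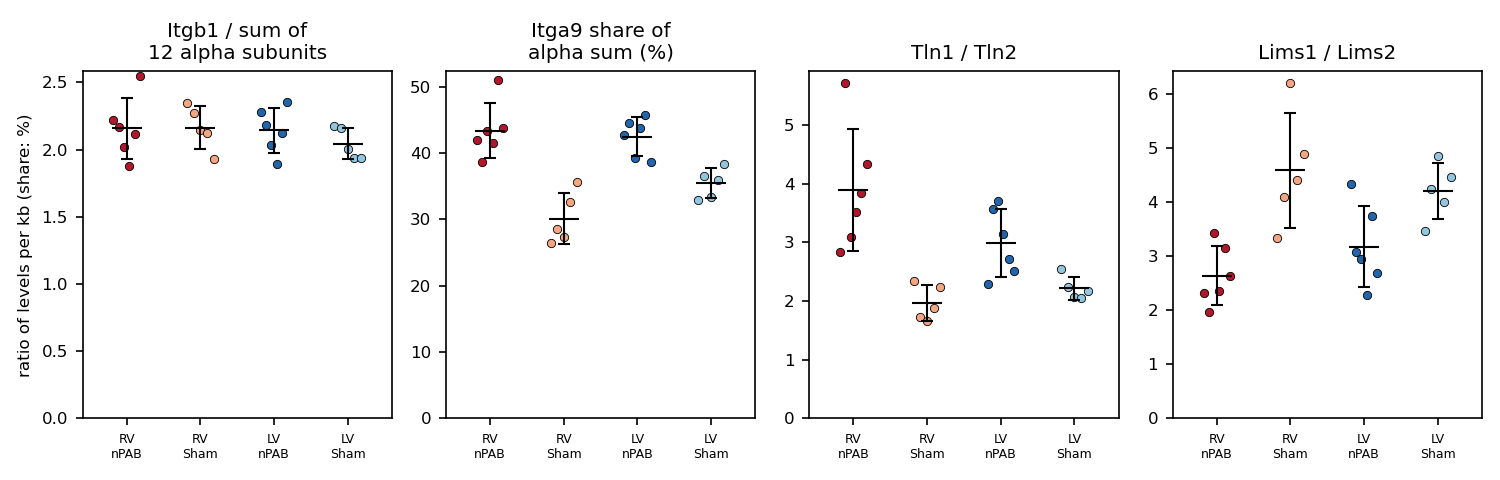
Ratios of levels per kb in each library (points), with group mean and SD (bars), for RV nPAB, RV Sham, LV nPAB and LV Sham. Itgb1 over the alpha sum has group means between 2.05 and 2.16, and the Itga9 share of the alpha sum is higher in nPAB than in Sham in both ventricles. In both ventricles the nPAB mean of Tln1 over Tln2 is higher than that of Sham, and the nPAB mean of Lims1 over Lims2 is lower. Between these paralogs, only Tln1 over Tln2 in the RV is without overlap.

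Genes that act beside this core were counted from 3 lists. The lists were chosen with earlier results of these data known, so the shares over all genes are given for scale and are no test of a list. Of 47 tested adhesion scaffolds and actin regulators, 20 were higher, 2 lower and 25 did not pass in the RV, against 11.1% and 10.8% of all genes. Their median log2 fold change was 0.29, against 0.00 over all genes. In the LV, 10 of 46 were higher and 0 lower, against 4.76% and 4.55%. The 4 with the smallest p in the RV, given with their log2 fold changes, were Sorbs2 (0.93, adjusted p = 6.38e-07), Xirp2 (3.87, adjusted p = 2.15e-05), Enah (0.98, adjusted p = 2.46e-05) and Actn2 (0.52, adjusted p = 6.37e-05). These 4 rose in the LV too. Under the 19 alternatives there, Sorbs2 passed in 19 (0.31 to 0.38), Enah in 18 (0.33 to 0.44), Actn2 in 18 (0.25 to 0.30) and Xirp2 in 11 (1.17 to 1.69). Sorbs2 is an adaptor of the Z-disc and adhesions that binds vinculin, Xirp2 a protein that holds actin bundles at the intercalated disc. Enah is an actin filament elongator and Actn2 the alpha-actinin of the Z-disc.

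Of 42 tested adhesion kinases and GTPase regulators, 7 were higher, 5 lower and 30 did not pass in the RV, against 11.1% higher and 10.8% lower of all genes. In the LV 1 was higher and 2 lower, against 4.76% and 4.55%, so the LV counts and the lower RV genes were near the share over all genes. On the log2 scale, Nedd9, a paralog of Bcar1, rose in the RV by 0.98 (adjusted p = 1.84e-06), and Rapgef1, an exchange factor for Rap, by 0.61 (adjusted p = 8.00e-05). Nedd9 rose in the LV too, where it passed under all 19 alternatives at 0.64 to 0.77. Rapgef1 passed in the LV only without Sham mouse 10, at 0.31. Arhgap26, a GTPase-activating protein, had a log2 fold change of -0.63 in the RV (adjusted p = 6.96e-04). It passed in the LV only without nPAB mouse 11, at -0.48.

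Of 30 tested matrix genes whose products bind integrins, 6 were higher, 5 lower and 19 did not pass in the RV, against 11.1% higher and 10.8% lower of all genes. In the LV 5 were higher and 0 lower, against 4.76% and 4.55%. The chains of basement membrane collagen Col4a1 and Col4a2 rose in the RV by 0.62 (adjusted p = 1.97e-05) and 0.56 (adjusted p = 7.14e-05) on the log2 scale. In the LV they rose by 0.41 (adjusted p = 0.00385) and 0.46 (adjusted p = 9.73e-04). Thbs1, the gene of thrombospondin, rose in the RV by 1.54 on the log2 scale (adjusted p = 6.61e-05) and was at 1.51 in the LV (adjusted p = 0.0598). Col3a1, a fibrillar collagen chain and also one of the fibroblast markers above, fell in the RV at -0.56 (adjusted p = 7.26e-04) and was at -0.15 in the LV (adjusted p = 0.394).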

How the data were processed

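Per the labels' protocols, RNA came from a Qiagen RNeasy extraction and libraries from a Revelo kit. Tools named in the submitters' processing notes are cutadapt, featureCounts and DESeq2, with genome mm10. Not given in the sources used here were the aligner, all versions and the strand of counting. For each ventricle the authors deposited a table of DESeq2-normalized counts, a signal that cannot be negative, and the 2 tables were normalized separately. Gene names, bounds and exon lengths came from GENCODE release M21 (mm10, GRCm38), and promoters from RefSeq (GRCm38.p6).

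Within each table, limma 3.58.1 (R 4.3.3) compared nPAB with Sham on log2 deposited values (pseudocount 1) of genes averaging 10 or more in that table, with trend and robust options, two-sided, with Benjamini-Hochberg adjustment over all genes tested and a threshold of 0.05. Such fold changes understate the change of low genes. For comparisons across ventricles, whole reads were recovered from the deposited values (multiples of 1 read within 0.001) and scaled by median-of-ratios size factors over all 22 libraries. edgeR 4.0.16 and DESeq2 1.42.0 on these reads were alternatives. The limma and edgeR fits were also run on simulated counts, drawn as independent libraries without pairing by mouse. Their outcome is not given here. Other alternatives changed the pseudocount, the filter, the scaling and the variance model, or left out mice. Figures were drawn with matplotlib 3.10.9.

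The genes and lists were chosen with earlier results of these data known. By rule, Itgb1, Vcl and each gene that passed were described library by library. The other tested genes were named with fold change and adjusted p or counted, and of each further list the 4 with the smallest RV p were named, except 1 gene that is not reported here.

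By the mouse numbers in the titles, an RV and an LV library come from each animal. Deviations from the group means correlated at 0.0548 to 0.383 in the 11 same-numbered pairs and above 0.1 in 10 of them, and sex-linked genes differed within the pairs of nPAB mice 6 and 7. Between libraries of the same group, the smallest chi-square, divided by its degrees of freedom, was 7.47, well above sampling noise.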

Additional observations from a re-analysis of the deposited data

Results flagged for a closer look

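Of 156 sets of libraries checked (39 genes in 4 groups), 6 held a library far from the others, and chance alone flags about 1 in 20. Itga9 was highest in RV nPAB mouse 10, at 5451 normalized counts, with the next library at 4361. Fermt2 was lowest in LV Sham mouse 11, at 1613 normalized counts, with the next library at 1864. Ptk2 was highest in LV Sham mouse 10, at 744 normalized counts, with the next library at 628. Among the other adhesion genes, Xirp2 was highest in LV nPAB mouse 6, at 30867 normalized counts (next 13669), Thbs1 in RV nPAB mouse 10, at 1175 (next 778), and Arhgap26 in LV nPAB mouse 11, at 767 (next 529). Neither Fermt2 nor Ptk2 passed the test in either ventricle, and Itga9 passed in both under all 19 alternatives tried.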

How the results depend on the processing

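Of the 12 genes that passed in the RV, 11 passed under all 19 alternatives (scaling, pseudocount, filter, variance model, edgeR, DESeq2, and mice left out) and Ilk passed under 10. Leaving out 1 mouse gave 11 to 12. Of the 9 in the LV, Itga9, Itgb6 and Parvb passed under all 19, Itgb1 under 18, Lims2 and Zyx under 17, Bcar1 under 13, Tln1 under 9 and Itga5 under 7. Without the trend and robust options 3 LV genes passed, 2 of them higher. Without mice 6 and 7, 4 were higher and 2 lower, and DESeq2 gave 2 lower, Itga6 being the added one. Leaving out 1 mouse gave 6 to 9 LV genes, 5 to 8 of them higher and 1 to 2 lower. None of these calls changed sign under any of these alternatives. The 11 genes named from the other lists passed in the RV under all 19; of those that passed in the LV, Xirp2 did so under 11 and Actn2 and Enah under 18.

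Of the genes that did not pass, Itga7 in the LV (-0.02) was at 0.00071 with TMM scaling, 0.020 in edgeR, 0.020 in DESeq2, 0.13 without mice 6 and 7 and -0.12 to 0.072 with 1 mouse left out. With 1 mouse left out, Itga6 in the RV ran from -0.0016 to 0.11 and Ilk in the LV from -0.22 to 0.054. The cause was not tested.

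With the replicate block by mouse number, 0 of the 36 genes passed for the difference between ventricles and 0 for RV minus LV in Sham, as without it. For the difference, the block also paired the libraries of nPAB mice 6 and 7, whose sex-linked genes differ. These 2 pairs may not be from 1 animal each, so the block is not a clean test by mouse. Over all genes, the block gave 9 calls against 3 for the difference and 0 against 6 for Sham. For the difference, all-gene calls numbered 34 in DESeq2, 82 without mice 6 and 7, 5 on the deposited scales, 1 without trend and robust options and 0 to 10 with 1 mouse left out. For Sham they numbered 31 in DESeq2, 0 in edgeR (770 at an unadjusted p under 0.05), 0 without trend and robust options and 0 to 7 with 1 mouse left out. LV calls over all genes, 1260, numbered 739 without trend and robust options and 670 without mice 6 and 7.

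Genes of low count, such as Ilk, Itga11 and the leukocyte chains, varied widely between libraries, which held 7.11 to 11.3 M reads. The cause of this spread was not tested. Their intervals were wide, so a gene of this kind that did not pass is not shown to be unchanged.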
